A study of Mus musculus with 20 samples.

Results

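The genes described here are the amino acid transporter families of the mouse, taken as every gene whose platform symbol belongs to the solute carrier families Slc1, Slc3, Slc6, Slc7, Slc36, Slc38 or Slc43. The rule found 58 such genes among the 18193 genes that had a probe set of their own, with 118 probe sets in all. A gene was reported where at least 2 arrays exceeded a log2 value of 5, which 28 of the 58 genes and 45 of the 118 probe sets did. The rule used only this level, not any difference between cell types. Of the 28 genes, 2 were of Slc1, 1 of Slc3, 7 of Slc6, 6 of Slc7, 2 of Slc36, 7 of Slc38 and 3 of Slc43. Expression had been measured with Affymetrix mouse arrays in cells that were sorted by flow cytometry from wild-type C57Bl/6 CD45.1 mice, labelled as female and 12 to 14 weeks old. Each of the 20 arrays was made from RNA pooled from 4 samples and amplified before labelling, and each cell type had 2 arrays that the series text calls biological replicates. The groups were activated CD4 and activated CD8 T cells (activated with lipopolysaccharide, per the source names), their naive CD4 and naive CD8 counterparts, nucleated erythrocytes (red cell precursors that have kept their nucleus), long-term hematopoietic stem cells (LT-HSC), granulocytes, monocytes, natural killer (NK) cells and B cells. No group carries a transgene, a deletion or any treatment other than that activation. Values are log2 expression values after GCRMA, and a difference below is a log2 difference. Probe sets differ in how brightly they bind, so levels were compared between cell types within a gene and never between genes. RNA from a sorted population does not show whether fewer cells of a population or less RNA per cell lies behind a lower value.

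Cells take up amino acids through membrane carriers that differ in the substrates they accept. Slc7 light chains such as Slc7a5 (LAT1, large neutral amino acids), Slc7a6 and Slc7a7 (cationic and neutral exchange) and Slc7a11 (xCT, cystine in exchange for glutamate) need the heavy chain Slc3a2 (CD98) to reach the cell surface, whereas Slc7a1 and Slc7a3 carry cationic amino acids without it. Slc1a4 and Slc1a5 exchange small neutral amino acids and, for Slc1a5, glutamine. The Slc38 family carries glutamine and other small neutral amino acids with sodium, and its member Slc38a9 sits on lysosomes, where it signals arginine to the growth-controlling kinase complex mTORC1. In T cells, uptake of leucine and glutamine is known to be required for growth and division after activation, and in red cell precursors glycine is a building block of heme.

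Marker genes separated most of the labelled types. Averaged over each list, T cell markers lay between 9.21 and 10.95 in the 8 T cell arrays and at 3.95 or below in the other types, and CD8 markers lay between 11.11 and 12.92 in CD8 T cells and at 4.90 or below elsewhere. The probe set of Cd4 stayed between 3.32 and 4.35 on all arrays, so that it did not separate the CD4 T cells from any other type. The interleukin-2 receptor chain Il2ra lay between 11.43 and 12.02 in activated T cells and at 3.68 or below in naive T cells. The proliferation gene Mki67 did not follow that label, with means of 9.34 in activated CD4 and 11.23 in activated CD8 T cells, against naive means of 11.94 for CD4 and 11.90 for CD8 T cells. Granulocyte markers averaged 12.60 and 12.35 in granulocytes, but also 9.44 and 10.47 in nucleated erythrocytes and 8.23 and 8.24 in monocytes. Erythroid markers averaged 13.52 and 13.56 in nucleated erythrocytes and 8.30 and 6.39 in granulocytes. B cells also held the plasma cell markers, at 10.32 and 10.30. Naive CD4 array 2 held the granulocyte markers S100a8 and S100a9, at 10.75 and 10.68, against 3.45 and 3.05 on naive CD4 array 1. The Y-linked genes Eif2s3y and Kdm5d had a signal on 6 arrays, the 4 activated T cell arrays and array 1 of each naive T cell type, although all mice are labelled as female. Eif2s3y lay between 10.73 and 12.84 on those arrays and at 3.45 or below on the other 14. Its part in any result was not tested, and counts without the naive arrays among them are given beside the activation results. All 4 activated arrays carry the signal, so those counts set arrays with it against naive arrays without it. They cannot part the signal from activation. Replicate arrays correlated between 0.945 (monocytes) and 0.988 (B cells) over all genes tested. The 2 monocyte arrays differed by more than 1 for 9 of the 28 transporters and the granulocyte arrays for 6, which widens the errors given below.

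The transporters varied widely between the cell types. The distance between the highest and the lowest cell type mean had a median of 4.83 over the 28 genes and ran from 0.60 (Slc6a17) to 11.19 (Slc38a5), against a median of 3.78 over the 9810 genes tested. A difference anywhere among the 10 types was called for 27 of the 28 at an adjusted p under 0.05 (limma F-test, Benjamini-Hochberg), against 94.3% of all genes tested, so a difference among types was the rule on these arrays. The gene that was not called is Slc6a17, a carrier of neuronal vesicles, whose values stayed between 4.90 and 5.80. Nucleated erythrocytes were the highest type for 8 genes, LT-HSC for 5, activated CD8 T cells for 4 and granulocytes for 3. Each of the other 6 types was highest for 1 or 2 genes. The heat map of all arrays shows a group of genes that were bright in nucleated erythrocytes and dark in most other types (Slc38a5, Slc43a1, Slc6a9) and genes that were bright everywhere (Slc38a2, Slc38a10).

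**Figure D1:**
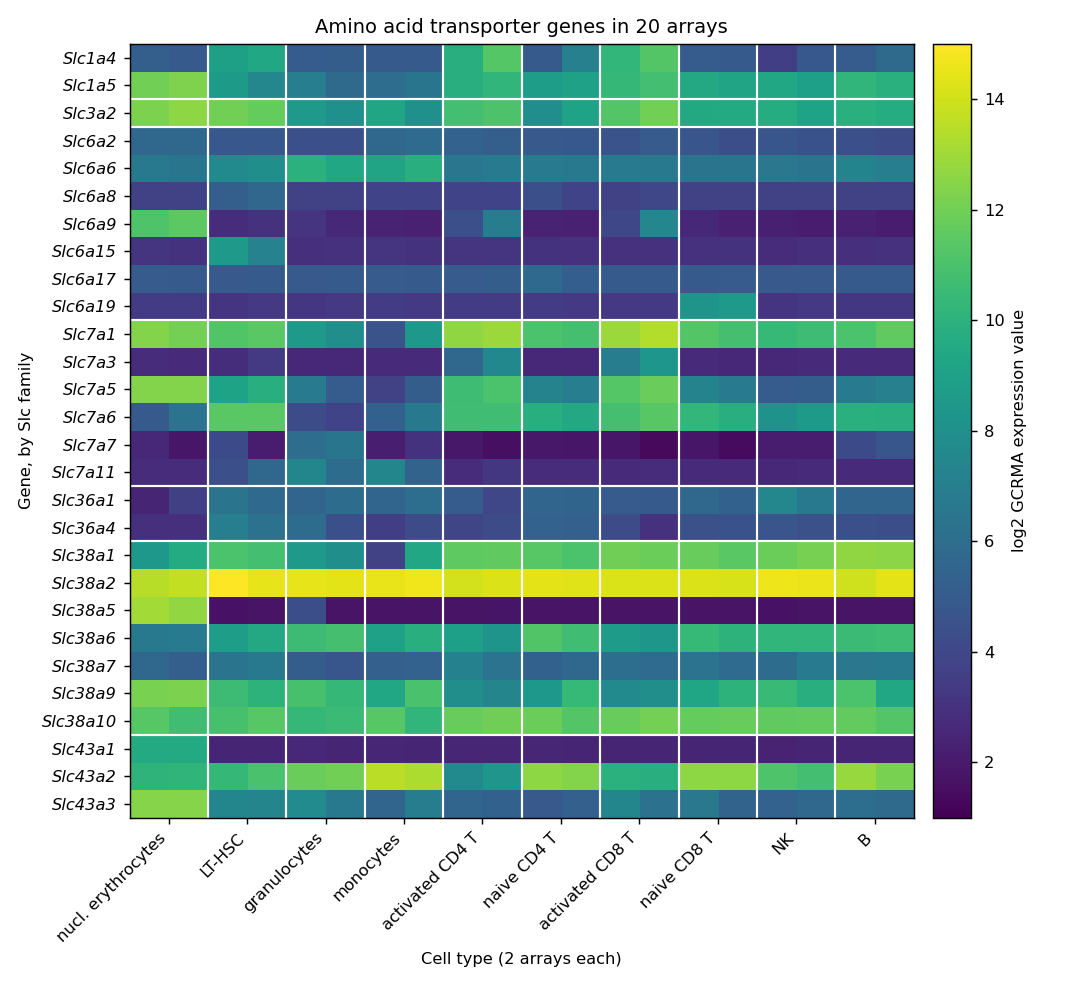
Heat map of the log2 GCRMA expression value (colour) of 28 transporter genes (rows, grouped by family) on 20 arrays (columns, 2 for each of 10 cell types). Slc38a2 is bright in every column, between 13.48 and 15.06, whereas Slc38a5 is bright in the columns of nucleated erythrocytes, at 13.04 and 12.73.

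In activated against naive T cells Slc1a4, Slc3a2, Slc6a9, Slc7a3 and Slc7a5 rose in both lineages, and Slc38a6 and Slc43a2 fell in both. A gene was called where the adjusted p of limma's moderated test was under 0.05 over all 9810 genes and the difference was at least 1. In CD4 T cells 6 of the 28 transporters rose, where 14.9% of all genes did, and 3 fell, where 18.2% of all genes did. In CD8 T cells 6 rose, where 14.4% of all genes did, and 3 fell, where 15.7% of all genes did. The median difference of the transporters was 0.19 in CD4 and 0.06 in CD8 T cells, against 0.02 and -0.02 over all genes. Slc7a3 had passed the level filter only through the 4 activated T cell arrays and Slc6a19 only through the 2 naive CD8 arrays, so that both had to differ between types if they were to be reported at all. The counts are for that reason descriptions, and no p-value is given for these 2 genes. The naive arrays numbered 1 carry the Y-linked signal, as all activated arrays do. Set against these naive arrays alone, Slc6a9 was no longer called in either lineage. The calls of Slc36a4 in CD4 and of Slc1a5 in CD8 T cells were lost there as well. That fit leaves 1 naive array in each lineage. With both naive arrays numbered 1 left out, 5 rose and 3 fell in CD4 T cells, and 5 rose and 4 fell in CD8 T cells.

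Slc1a4 (ASCT1), an exchanger of alanine, serine and cysteine, rose in each lineage. It had 9.85 and 11.32 in activated CD4 T cells, against 4.99 and 7.12 in naive CD4 T cells, a difference of 4.53 ± 0.64 (SE; limma adjusted p = 1.27e-04). In CD8 T cells it had 10.29 and 11.27 after activation, against 5.06 and 4.97 in naive cells, a difference of 5.77 ± 0.64 (limma adjusted p = 2.54e-05). The 4 activated arrays were the highest of all 20. LT-HSC came next with 8.98 and 9.35, and the 7 remaining types lay at 7.12 or below and did not differ from their neighbours in the order beyond 2 standard errors. In a fit of CD4 T cells alone the adjusted p of Slc1a4 was 0.0510. With the mean of all its probe sets, which takes in sets under the filter, its differences were 1.535 in CD4 and 2.41 in CD8 T cells, and both were called. Its relative Slc1a5 (ASCT2), a glutamine carrier, moved far less. It had 10.30 and 10.84 in activated CD8 T cells, against 9.46 and 9.20 in naive CD8 T cells, a difference of 1.24 ± 0.42 (limma adjusted p = 0.0352). In activated CD4 T cells it had 9.84 and 10.23, against 8.84 and 9.03 in naive CD4 T cells, and the difference of 1.10 ± 0.42 missed the threshold (limma adjusted p = 0.0542). The call in CD8 T cells was lost without naive CD8 array 1 (adjusted p = 0.0813), naive CD8 array 2 (0.159) or activated CD8 array 2 (0.211), within a range of 0.0129 to 0.211 over all settings tried. It was also lost with the mean of all its probe sets, where the difference was 0.61.

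Slc3a2, the heavy chain that brings several Slc7 light chains to the cell surface, and its partner Slc7a5 (LAT1) rose together. Slc7a5 had 10.67 and 11.01 in activated CD4 T cells, against 7.26 and 6.97 in naive CD4 T cells, a difference of 3.73 ± 0.53 (limma adjusted p = 1.26e-04). In activated CD8 T cells it had 11.30 and 11.78, against 7.25 and 6.81 in naive CD8 T cells, a difference of 4.51 ± 0.53 (limma adjusted p = 3.81e-05). The arrays of the groups lay far apart in both lineages. Slc3a2 had 10.82 and 11.09 in activated CD4 T cells, against 7.89 and 9.11 in naive CD4 T cells, a difference of 2.46 ± 0.45 (limma adjusted p = 8.80e-04). In activated CD8 T cells it had 11.28 and 12.00, against 9.50 and 9.56 in naive CD8 T cells, a difference of 2.11 ± 0.45 (limma adjusted p = 0.00289). Every one of the 32 other settings kept these calls of Slc7a5 and Slc3a2 in both lineages. The light chain Slc7a6, which exchanges cationic for neutral amino acids, was higher by 1.10 ± 0.45 in CD4 and 1.05 ± 0.45 in CD8 T cells, and neither passed (limma adjusted p = 0.0729 and 0.0905).

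Of the carriers of cationic amino acids, Slc7a3 (CAT3) was near the background in all naive T cells and above it after activation. It had 5.73 and 7.54 in activated CD4 T cells, against 2.58 and 2.56 in naive CD4 T cells, a difference of 4.07 ± 0.49. Activated CD8 T cells had 6.92 and 8.34, against 2.65 and 2.58 in naive CD8 T cells, a difference of 5.02 ± 0.49. No other cell type exceeded 3.39 on any array. The naive values are near the lowest of the arrays, where the size of a difference depends on the background correction. The related Slc7a1 (CAT1), an arginine and lysine carrier found in most dividing cells, was already bright in naive T cells. It had 12.68 and 12.89 in activated CD4 T cells, against 11.05 and 10.89 in naive CD4 T cells, and 12.88 and 13.39 in activated CD8 T cells, against 11.28 and 10.87 in naive CD8 T cells. The groups did not overlap, yet the differences of 1.82 ± 0.81 and 2.06 ± 0.81 missed the threshold (limma adjusted p = 0.0962 and 0.0656). All types share 1 estimate of the spread, and the monocyte arrays differed widely for this gene, with 4.60 and 8.46. With either monocyte array left out the adjusted p of limma was 3.40e-04 in CD4 and 1.85e-04 in CD8 T cells, within a range of 3.40e-04 to 0.272 in CD4 T cells and 1.85e-04 to 0.255 in CD8 T cells over all settings tried.

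Slc6a9 (GlyT1), a glycine carrier, rose in both lineages but differed between replicate arrays. It had 4.44 and 6.87 in activated CD4 T cells, against 2.40 and 2.28 in naive CD4 T cells, a difference of 3.32 ± 0.86 (limma adjusted p = 0.00798). Activated CD8 T cells had 4.03 and 7.48, against 2.54 and 2.29 in naive CD8 T cells, a difference of 3.34 ± 0.86 (limma adjusted p = 0.00864). In each lineage the activated array numbered 2 was above 5 and the other was below. The naive arrays numbered 1 carry the Y-linked signal, as the activated arrays do. Set against these alone, the differences were 3.255 in CD4 and 3.215 in CD8 T cells. With only 1 naive array left in each lineage, neither difference was called. Without activated CD4 array 2 the difference in CD4 T cells was 2.10 (adjusted p = 0.105), and without activated CD8 array 2 that in CD8 T cells was 1.62 (adjusted p = 0.106). Leaving out naive CD8 array 2 also ended the call in CD8 T cells, with an adjusted p of 0.0512. The adjusted p ranged from 5.20e-04 to 0.105 in CD4 and from 1.85e-04 to 0.166 in CD8 T cells over all settings tried. Slc38a7, described as a lysosomal glutamine carrier, was called in CD4 T cells alone. It had 7.13 and 6.32 in activated CD4 T cells, against 5.37 and 5.73 in naive CD4 T cells, a difference of 1.18 ± 0.34 (limma adjusted p = 0.0153). In CD8 T cells its arrays overlapped, with 6.06 and 5.89 after activation, against 6.35 and 5.89 in naive cells. The difference between the lineages did not pass (-1.32 ± 0.48, limma adjusted p = 0.510). The call was lost without naive CD4 array 1 (adjusted p = 0.0984) or activated CD4 array 1 (0.176), within a range of 0.00887 to 0.176.

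**Figure D2:**
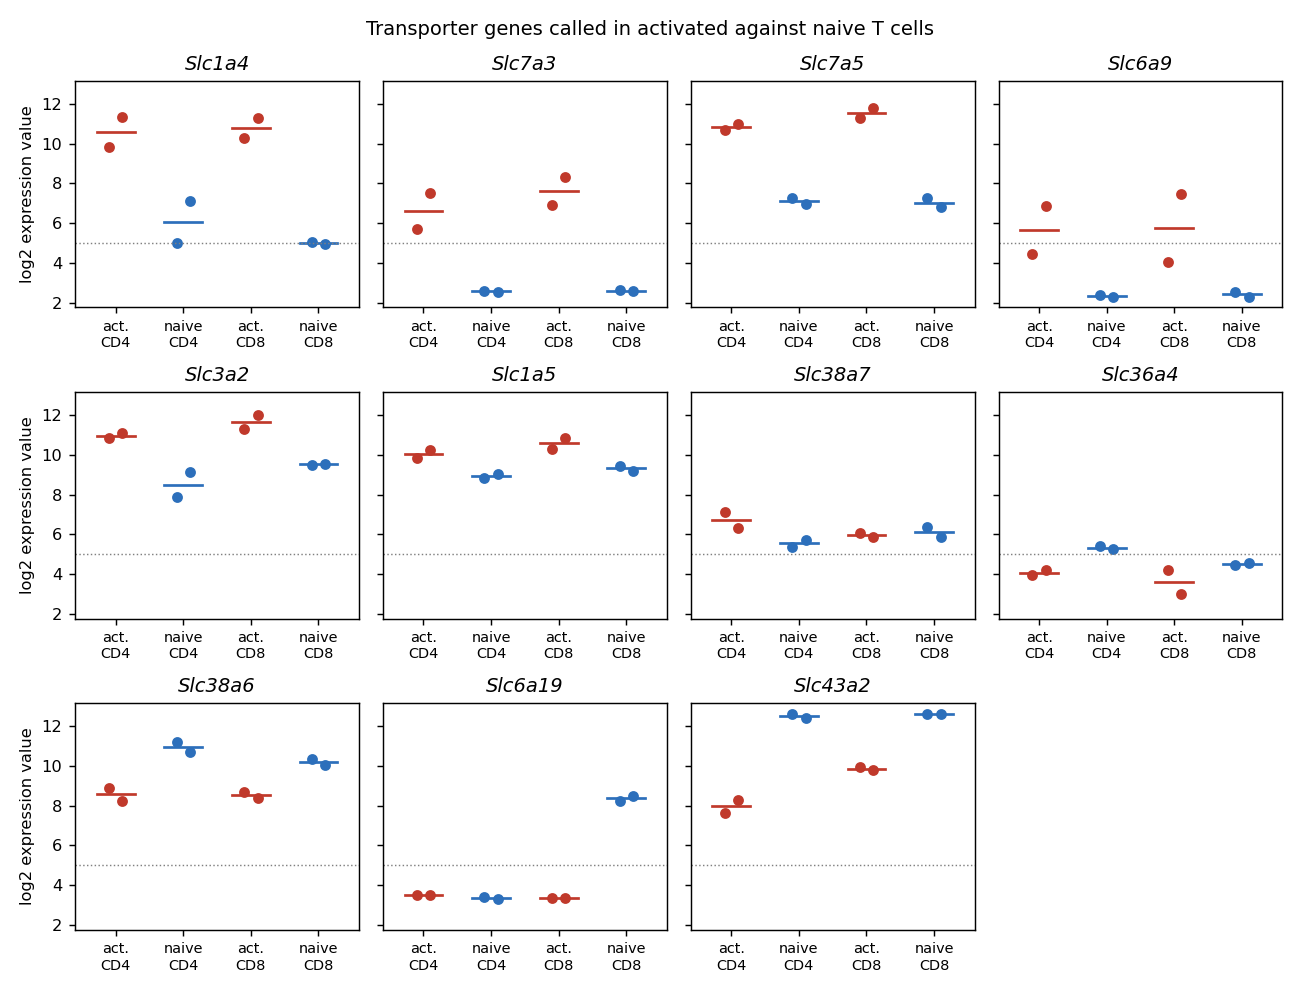
Log2 GCRMA expression value of the 11 transporter genes called in activated against naive T cells, 1 panel a gene. Points are single arrays, red for activated and blue for naive cells, horizontal bars are means of 2 arrays, and the dotted line marks a log2 value of 5. Slc7a5 lies at 10.67 or above in activated and at 7.26 or below in naive cells, and Slc43a2 runs the other way.

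Slc43a2 (LAT4), a carrier of leucine, isoleucine, valine, methionine and phenylalanine that moves them along their gradient, fell in both lineages. It had 7.62 and 8.30 in activated CD4 T cells, against 12.62 and 12.39 in naive CD4 T cells, a difference of -4.55 ± 0.30 (limma adjusted p = 3.86e-07). In CD8 T cells it had 9.93 and 9.80 after activation, against 12.61 and 12.63 in naive cells, a difference of -2.76 ± 0.30 (limma adjusted p = 2.24e-05). The 4 activated arrays had the lowest values of all 20, although activated CD8 T cells were within 2 standard errors of nucleated erythrocytes, the next type. Activated CD8 exceeded activated CD4 T cells by 1.91 ± 0.30 (limma adjusted p = 0.00454). It was the only transporter called between the activated lineages, where 1.16% of all genes were higher in CD8 and 0.285% lower. That call was lost without activated CD4 array 1, in a fit of the compared groups alone and with the mean of all probe sets of a gene. The difference between the lineages in their response did not pass (1.79 ± 0.43, limma adjusted p = 0.108). With the mean of all its probe sets the activation differences were -2.36 in CD4 and -1.66 in CD8 T cells, and both were called. A marker of another cell type moved with this gene. The monocyte marker Csf1r had 2.22 and 2.71 in activated CD4 T cells, against 9.44 and 10.21 in naive CD4 T cells, and 4.63 and 2.81 in activated CD8 T cells, against 8.64 and 7.91 in naive CD8 T cells. The list of 4 monocyte markers averaged between 2.94 and 3.39 on the activated arrays, against 4.30 to 4.998 on the naive arrays, while its members Cd14 and Itgam lay at 2.62 or below on all 8. The part of such cells in the differences was not tested. Slc38a6, which has been described as a glutamate and glutamine carrier, fell as well. It had 8.91 and 8.25 in activated CD4 T cells, against 11.21 and 10.70 in naive CD4 T cells, a difference of -2.38 ± 0.32 (limma adjusted p = 9.16e-05). Activated CD8 T cells had 8.69 and 8.39, against 10.37 and 10.05 in naive CD8 T cells, a difference of -1.67 ± 0.32 (limma adjusted p = 0.00142). With the mean of all its probe sets the differences were -1.17 in CD4 and -0.87 in CD8 T cells, of which that in CD8 no longer reached the size asked of a call. Of the proton-coupled Slc36 carriers, Slc36a4 had 3.94 and 4.20 in activated CD4 T cells, against 5.39 and 5.28 in naive CD4 T cells. Its difference of -1.27 ± 0.46 only just passed (limma adjusted p = 0.0444). Its call was lost in 15 of 31 other settings, among them leaving out any array of NK cells, of B cells, of nucleated erythrocytes or of naive CD4, naive CD8 or activated CD4 T cells (adjusted p up to 0.186).

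Slc6a19 (B0AT1), a neutral amino acid carrier best known from the kidney and the gut, was high in naive CD8 T cells and near the background elsewhere. It had 3.34 and 3.38 in activated CD8 T cells, against 8.24 and 8.50 in naive CD8 T cells, a difference of -5.01 ± 0.18. In CD4 T cells it stayed low, with 3.50 and 3.51 after activation, against 3.42 and 3.33 in naive cells. The response in CD8 minus that in CD4 T cells was -5.14 ± 0.26. No other transporter was called in the test of this difference, in which 0.326% of all genes were called higher and 0.336% lower. Naive CD8 exceeded naive CD4 T cells by 4.995 ± 0.18 for Slc6a19, and no other transporter was called between the naive lineages, where 1.54% of all genes were higher in CD8 and 0.795% lower. In a fit of the naive groups alone 0 transporters were called between them. The NK cell marker Gzma had 2.85 and 7.03 in activated CD8 T cells, against 12.85 and 9.64 in naive CD8 T cells. The 5 NK cell markers averaged 4.48 and 5.38 in activated CD8 T cells, against 6.43 and 5.75 in naive CD8 T cells. Gzma alone among them was lower after activation by more than a trace. Ncr1, Klrk1 and Klrb1a lay at 3.63 or below on all arrays of both CD8 groups. Eomes was higher after activation, with 11.56 and 11.75, against 11.17 and 10.94 in naive CD8 T cells. The part of such cells in the result was not tested. In NK cells Slc6a19 itself had 3.17 and 3.30. A second probe set of the gene fell by 5.90 in CD8 T cells. The plot of both lineages shows Slc6a19 on its own far below the other genes.

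**Figure D3:**
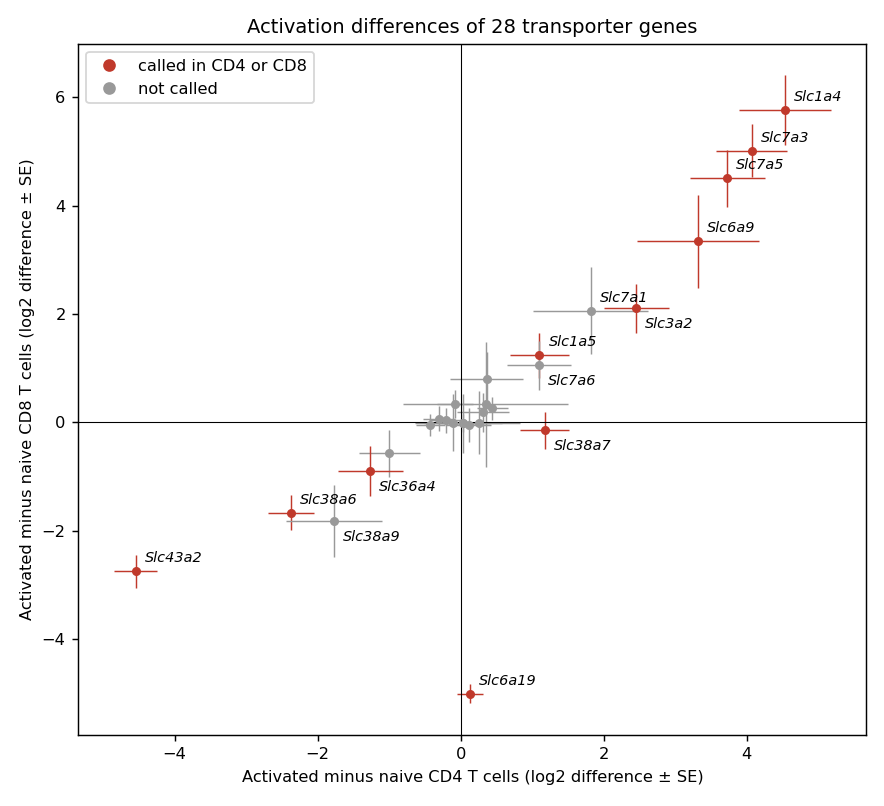
Log2 difference of activated minus naive CD4 T cells (x) and of activated minus naive CD8 T cells (y) for 28 transporter genes, with standard errors from limma as bars. Red genes were called in at least 1 lineage and gray genes in none. Slc1a4 lies at the top right with 4.53 and 5.77, and Slc6a19 at the bottom with 0.13 and -5.01.

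Several transporters are covered by more than 1 probe set, and these did not always move alike. The fit was therefore repeated over all 15892 probe sets that passed the level filter. Both probe sets of Slc43a2 fell in both lineages, the dimmer by 2.62 in CD4 and 2.22 in CD8 T cells. The second probe set of Slc7a1 rose by 1.62 ± 0.43 in CD4 (limma adjusted p = 0.0107) and 2.00 ± 0.43 in CD8 T cells (limma adjusted p = 0.00329), sizes close to those of the brighter set that missed the threshold. Slc38a1, a sodium-coupled glutamine carrier, had 11.50 and 11.57 in activated CD4 T cells, against 11.36 and 11.01 in naive CD4 T cells, by its brighter probe set, which was not called. Its dimmer probe set had 7.32 and 6.31 in activated CD4 T cells, against 5.81 and 5.46 in naive CD4 T cells, and was called in CD4 (1.18 ± 0.30, limma adjusted p = 0.00760) and CD8 T cells (1.45 ± 0.30, limma adjusted p = 0.00233). The lysosomal arginine sensor Slc38a9 has 7 probe sets above the filter, and it gave the widest disagreement. Its brightest set had 7.90 and 7.36 in activated CD4 T cells, against 8.45 and 10.36 in naive CD4 T cells, and 7.71 and 7.90 in activated CD8 T cells, against 9.21 and 10.05 in naive CD8 T cells. In the fit over genes its differences of -1.78 ± 0.67 and -1.83 ± 0.67 just missed the threshold (limma adjusted p = 0.0529 and 0.0512). Of its other sets, 3 were called lower in CD4 and 4 in CD8 T cells, with a largest difference of -3.21 ± 0.31 (limma adjusted p = 8.49e-06) in CD4 T cells. Another 2 stayed below 5 in every T cell array and were not called, among them the set with the largest variance, for which the difference in CD4 T cells was 0.12. Slc38a2, a glutamine and alanine carrier induced by amino acid shortage, was not called by its brightest set, which lay between 13.48 and 15.06 on all 20 arrays, whereas a dimmer set fell by 1.77 in CD4 T cells (limma adjusted p = 0.0432).

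**Figure D4:**
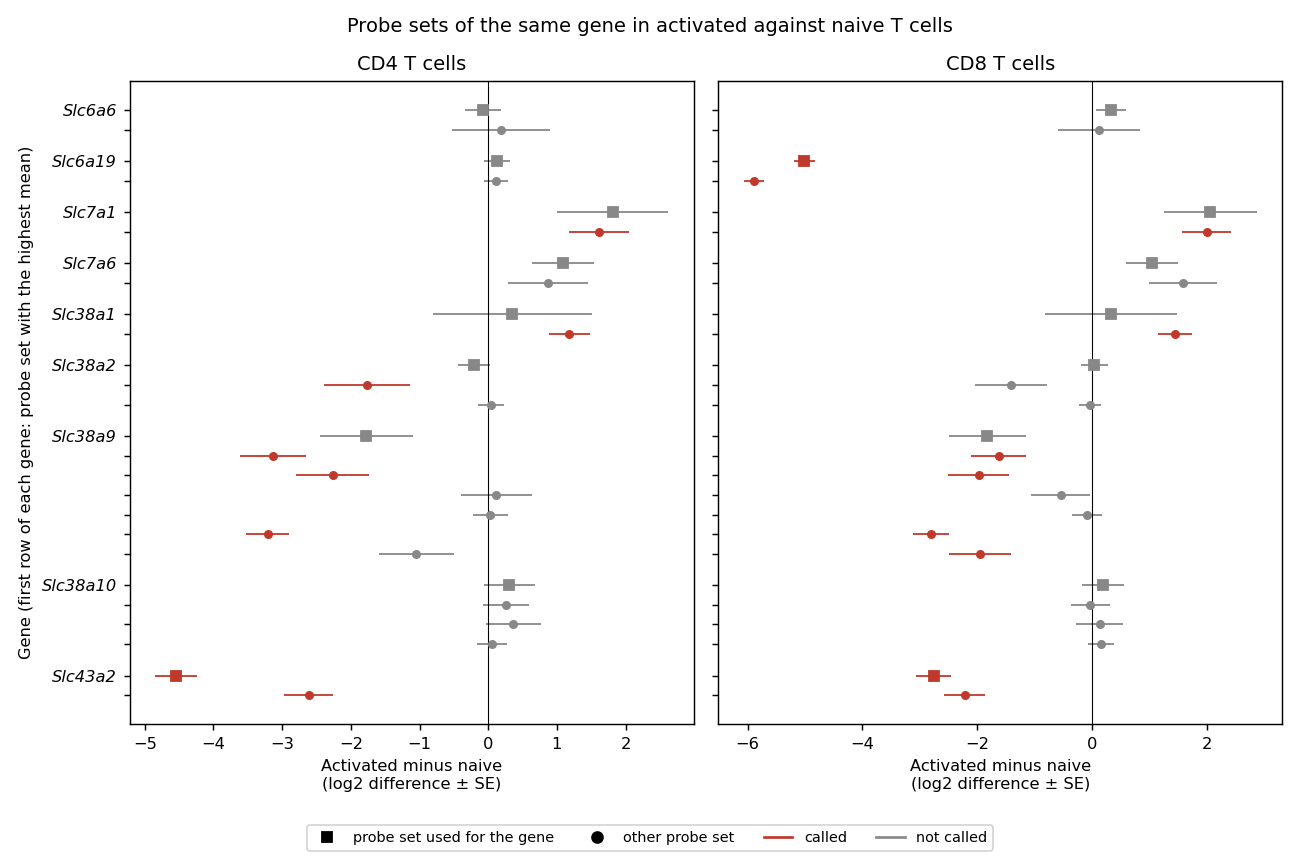
Log2 difference of activated minus naive CD4 (left) and CD8 (right) T cells with its standard error, for each probe set (rows) of the 9 transporter genes that have more than 1 above the filter. Squares mark the probe set used for the gene, circles the others, and red those called in the fit over 15892 probe sets. The 7 rows of Slc38a9 spread from -3.21 to 0.12 in CD4 T cells.

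Genes that surround these carriers moved as follows in the same comparison. Shortage of amino acids activates the transcription factor ATF4, which raises enzymes of amino acid synthesis and some transporters. Of 23 genes of this response outside the transporter families, 13 rose and 0 fell in CD4 T cells, where 14.9% of all genes rose and 18.2% fell. In CD8 T cells 12 rose and 0 fell, where 14.4% of all genes rose and 15.7% fell. The median differences of the list were 1.41 in CD4 and 1.29 in CD8 T cells, against 0.02 and -0.02 over all genes. Asparagine synthetase (Asns) had 11.85 and 13.23 in activated CD4 T cells, against 3.47 and 3.37 in naive CD4 T cells, a difference of 9.12 ± 0.45 (limma adjusted p = 3.75e-08), and the difference in CD8 T cells was 9.49 ± 0.45 (limma adjusted p = 1.71e-08). The stress-induced genes Atf3 and Trib3 rose by 4.88 and 4.51 in CD4 and by 5.32 and 6.54 in CD8 T cells, and Shmt2, the mitochondrial enzyme that makes glycine from serine, rose by 4.02 in CD4 T cells. Of 32 genes that sense amino acids or form and control mTORC1, 4 rose and 2 fell in CD4 T cells and 3 rose and 2 fell in CD8 T cells, shares of the list no larger than those of all genes just given. The translation repressor Eif4ebp1 rose by 5.98 ± 0.46 in CD4 and 4.70 ± 0.46 in CD8 T cells (limma adjusted p = 1.24e-06 and 9.00e-06), and Sesn1, a sestrin, fell by 3.10 ± 0.42 and 2.57 ± 0.42 (limma adjusted p = 8.88e-05 and 4.45e-04). Of 10 other amino acid and peptide carriers tested, 2 rose and 2 fell in each lineage. The aromatic amino acid carrier Slc16a10 rose by 1.05 in CD4 and 2.70 in CD8 T cells and the mitochondrial ornithine carrier Slc25a15 by 1.92 and 2.28. The peptide carrier Slc15a2 fell by 2.995 in CD4 and by 2.98 in CD8 T cells, and the aspartate and glutamate carrier Slc25a12 had differences of -1.33 and -1.09.

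The 7 letters GATGCAA form the core of the element through which ATF4 and its partners act on such genes. They were searched on both strands in RefSeq promoter windows (build GRCm38.p6) that run from 250 bases before to 50 after a transcript start, and 19 of the 28 transporters had at least 1 window. The letters occurred for 2.89% of all 27025 genes with a window and for 3 of the 19 transporters, namely Slc1a4, Slc7a11 and Slc7a7. Slc1a4 and Slc7a11 are shown because their values in T cells parted. Capitals mark the matches, of which GATGCAA reads along the gene's strand and TTGCATC is the same element on the opposite strand. Each sequence is written along the gene's strand, which is the minus strand for both.
Slc1a4 promoter, chr11:20332664-20332963, minus strand: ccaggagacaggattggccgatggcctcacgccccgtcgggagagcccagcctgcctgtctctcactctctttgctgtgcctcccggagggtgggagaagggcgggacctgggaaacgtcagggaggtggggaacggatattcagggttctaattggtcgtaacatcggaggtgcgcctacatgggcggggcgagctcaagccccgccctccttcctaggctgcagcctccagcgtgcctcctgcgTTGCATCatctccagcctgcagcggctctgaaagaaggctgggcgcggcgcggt
Slc7a11 promoter, chr3:50443564-50443863, minus strand: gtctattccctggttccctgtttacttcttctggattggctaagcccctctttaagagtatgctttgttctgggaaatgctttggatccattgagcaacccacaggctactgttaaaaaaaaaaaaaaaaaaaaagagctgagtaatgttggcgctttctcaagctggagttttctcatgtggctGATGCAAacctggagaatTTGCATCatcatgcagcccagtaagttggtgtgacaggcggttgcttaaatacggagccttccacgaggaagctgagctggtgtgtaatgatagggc
The match in Slc1a4 spans bases -4 to 3 around the start. Slc7a11 has a pair of matches that face each other, at bases -65 to -59 and -47 to -41. Slc1a4 rose in both lineages, as given above, whereas Slc7a11 had 2.76 and 3.25 in activated CD4 T cells, against 2.76 and 2.75 in naive CD4 T cells, and 2.71 and 2.75 in activated CD8 T cells, against 2.73 and 2.74 in naive CD8 T cells. A match shows only that these letters lie in the window, and binding was not measured. Slc7a5 and Slc7a3 are among the 9 transporters for which no window was used here.

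Nucleated erythrocytes had the most transporters above all other types. Against the mean of the other 9 types, 9 of the 28 were higher, where 18.5% of all genes were, and 7 were lower, where 36.7% of all genes were. For 8 of the 9 the arrays of nucleated erythrocytes lay above every other array, which held for 11.4% of all genes, and for 3 of the 7 below every other array, which held for 12.0%. A stricter call asked whether a gene exceeded each of the other types by at least 1, testing each of the 9 differences one-sidedly and adjusting the weakest p-value of limma over all genes. It was met by 8 of the 28 transporters, against 17.1% of all genes, and 5 of the 8 were highest in nucleated erythrocytes, a pattern that 7.31% of all genes had. Slc38a5, Slc43a1, Slc6a19, Slc6a15 and Slc6a8 passed the level filter with 2 arrays only, those of the type in which they are high, and therefore had to differ between types if they were to be reported at all. The count of 8 is for that reason a description. So is the count of 8 of the 9 that lay above every other array, which takes in Slc38a5 and Slc43a1.

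Slc38a5 (SNAT5), a carrier of glutamine, asparagine, histidine, serine and glycine, had 13.04 and 12.73 in nucleated erythrocytes and 1.77 or less on 17 of the other 18 arrays. Its margin over the next type was 9.84 ± 0.55. The exception was granulocyte array 1, at 4.37, against 1.73 on granulocyte array 2. On that array the erythroid markers averaged 8.30, against 6.39 on the other, and 3 of the 4 erythroid markers, against 2, were above 5. The part of such cells in the value was not tested. Slc43a1 (LAT3), a carrier of large neutral amino acids, had 9.54 and 9.55 in nucleated erythrocytes and lay between 2.42 and 2.55 on all 18 other arrays, a margin of 7.04 ± 0.17. The glycine carrier Slc6a9 had 11.15 and 11.45 there, a margin of 5.55 ± 0.86 over activated CD8 T cells, and 3.10 or less in every type other than the activated T cells. Slc43a3, which unlike its relatives is known as a carrier of purine bases, had 12.47 and 12.44, and no other array exceeded 7.77, a margin of 5.07 ± 0.51. Slc1a5 had 12.03 and 12.29, a margin of 1.59 ± 0.42 over activated CD8 T cells. The adjusted p of this last margin missed the threshold without activated CD8 array 1 (0.145), nucleated erythrocyte array 1 (0.0543) or nucleated erythrocyte array 2 (0.113), within a range of 0.00519 to 0.145, and with the mean of all its probe sets the margin was 0.82 and not called.

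**Figure D5:**
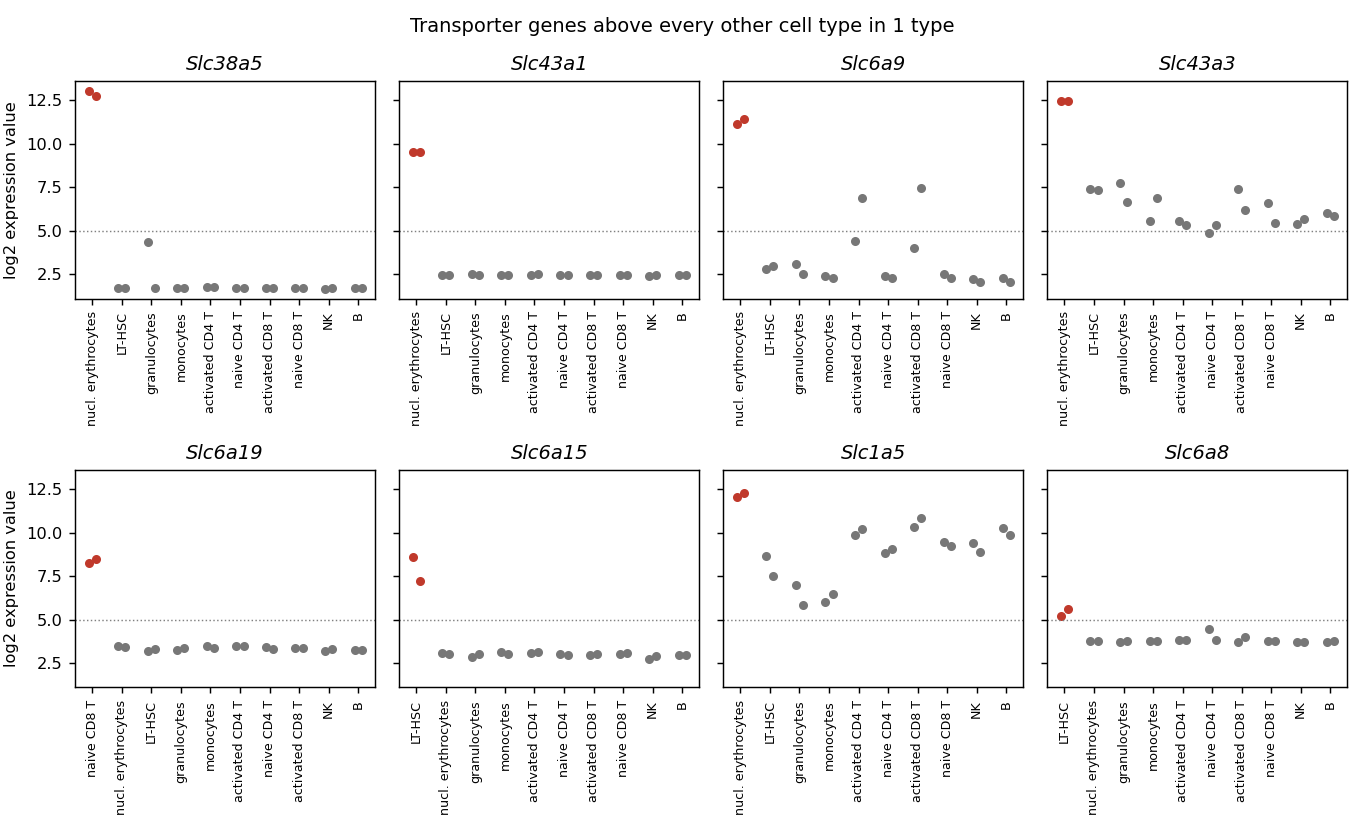
Log2 GCRMA expression value on each of 20 arrays for the 8 transporter genes that exceeded every other cell type by at least 1, with the highest type in red at the left of each panel and the other 9 types in gray. The dotted line marks a log2 value of 5, which only the 2 red points pass for Slc38a5, Slc43a1, Slc6a19, Slc6a15 and Slc6a8.

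The subunits of the CD98 and LAT1 exchanger were also high in nucleated erythrocytes. Slc7a5 had 12.41 and 12.39 there, above every other array and 4.80 ± 0.39 above the mean of the other types (limma adjusted p = 1.56e-07). It exceeded activated CD8 T cells, the next type, by 0.86 ± 0.53, which is within 2 standard errors. Below these came activated CD4 T cells, then LT-HSC with 9.14 and 9.85, then naive CD4 and CD8 T cells and B cells between 6.73 and 7.26, then granulocytes with 6.85 and 5.05, NK cells with 5.08 and 5.11 and monocytes with 3.68 and 5.11. From naive CD4 T cells down to monocytes no neighbours in this order differed beyond 2 standard errors. Slc3a2 had 12.26 and 12.60 in nucleated erythrocytes, 12.01 and 11.70 in LT-HSC, and 8.54 and 8.04 in granulocytes, the lowest type. Activated CD8 and activated CD4 T cells came next after LT-HSC, and none of these highest 4 types differed from its neighbour in the order beyond 2 standard errors. Slc38a9 had 12.20 and 12.24 in nucleated erythrocytes, 2.67 ± 0.50 above the mean of the other types (limma adjusted p = 3.34e-04), and was lowest in activated T cells. Among the transporters that were lower, Slc38a6 had 6.64 and 6.79, against values of 8.25 or more on every other array (-3.11 ± 0.24, limma adjusted p = 8.95e-08). Slc36a1, a proton-coupled carrier of small amino acids on lysosomes, had 2.47 and 3.66, against values of 3.98 or more elsewhere (-2.59 ± 0.32, limma adjusted p = 8.09e-06). Slc36a4 had 2.91 and 2.87, against 3.01 or more (-1.80 ± 0.34, limma adjusted p = 3.70e-04). For Slc36a4 activated CD8 T cells, the next type, were within 2 standard errors (0.725 ± 0.46). The values of Slc36a1 and Slc36a4 in nucleated erythrocytes lie under the filter level of 5, where no level can be read.

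In LT-HSC 8 of the 28 transporters were higher than the mean of the other types, where 18.4% of all genes were, and 2 were lower, where 21.5% of all genes were. For 4 of the 8 both LT-HSC arrays lay above all other arrays, which held for 7.04% of all genes. Among these, Slc6a15 and Slc6a8 had passed the level filter through the LT-HSC arrays alone, so that count is a description. Slc6a15 (B0AT2), a carrier of branched-chain amino acids and proline known from the brain, had 8.58 and 7.21 in LT-HSC and 3.15 or less on every other array, a margin of 4.78 ± 0.32. Slc6a8, a creatine carrier, had 5.23 and 5.63, against 4.43 or less elsewhere, a margin of 1.30 ± 0.22. Its values lie close to the level filter. Slc7a6 had 11.41 and 11.42 in LT-HSC. Activated CD8 and activated CD4 T cells followed within 2 standard errors. By this brighter probe set of Slc7a6 granulocytes had 4.23 and 3.82, the lowest values, and monocytes 5.34 and 6.66. The difference from the mean of the other types was 3.04 ± 0.34 for Slc7a6 (limma adjusted p = 6.10e-06) and 2.35 ± 0.34 for Slc36a4 (limma adjusted p = 7.40e-05), which had 6.97 and 6.28. Slc1a4, Slc3a2, Slc7a5 and Slc7a11 were the other 4 that were higher, by 1.49 to 2.80. Slc1a5 was lower by 1.14 and had 8.64 and 7.49.

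Slc6a6 and Slc7a11 were higher in both granulocytes and monocytes. Against the mean of the other types, 4 of the 28 transporters were higher in granulocytes, where 21.2% of all genes were, and 10 were lower, where 26.4% of all genes were. In monocytes 3 were higher, where 18.0% of all genes were, and 9 were lower, where 34.4% of all genes were. The taurine carrier Slc6a6 had 9.93 and 9.39 in granulocytes and 9.15 and 9.77 in monocytes, against 7.98 or less on every other array. It was higher by 2.56 ± 0.19 in granulocytes and 2.34 ± 0.19 in monocytes (limma adjusted p = 1.11e-07 and 2.18e-07), and these types did not differ from each other beyond 2 standard errors. The cystine carrier Slc7a11 had 7.43 and 5.96 in granulocytes, 7.45 and 5.46 in monocytes and 4.44 and 5.75 in LT-HSC, against 3.25 or less on the arrays of the 7 remaining types. It was higher by 3.26 ± 0.43 in granulocytes and 2.998 ± 0.43 in monocytes (limma adjusted p = 2.19e-05 and 3.94e-05). Its heavy chain Slc3a2 was lower than the mean in both types, by 2.01 ± 0.34 in granulocytes and 1.61 ± 0.34 in monocytes (limma adjusted p = 1.68e-04 and 8.66e-04). Slc7a7, the exchanger whose loss in humans causes lysinuric protein intolerance, had 5.99 and 6.44 in granulocytes and 4.14 and 4.72 in B cells, against 4.13 or less elsewhere. In monocytes it had 2.16 and 3.04.

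Slc1a4, Slc1a5, Slc3a2, Slc7a1, Slc7a5, Slc7a6 and Slc38a1 were lower than the mean of the other types in both granulocytes and monocytes. In monocytes Slc7a1 had 4.60 and 8.46 and was lower by 4.76 ± 0.60 (limma adjusted p = 1.21e-05), and Slc38a1 had 3.76 and 9.42 and was lower by 4.42 ± 0.86 (limma adjusted p = 4.80e-04). For both genes monocyte array 1 was the lowest of all 20, and monocyte array 2 was near or above the granulocyte values, which were 8.51 and 7.94 for Slc7a1 and 8.51 and 7.97 for Slc38a1. Slc1a5 had 5.99 and 6.46 in monocytes and 6.97 and 5.82 in granulocytes, the lowest types, which did not differ beyond 2 standard errors. Slc43a2, which fell in activated T cells, had its highest values in monocytes, at 13.53 and 13.25 (2.37 ± 0.22 above the mean of the other types, limma adjusted p = 8.20e-07). Both arrays lay above all other arrays, which held in monocytes for 5.23% of all genes. This was so only by the brighter probe set of Slc43a2. By the dimmer set monocytes had 9.34 and 9.30 and overlapped with B cell array 1, at 9.52, and LT-HSC array 1, at 9.32. In granulocytes 1 of the 4 higher and 2 of the 10 lower transporters did not overlap with any other array, against 7.15% and 2.98% of all genes, namely Slc7a7, Slc7a6 and the lysosomal carrier Slc38a7, which had 5.15 and 4.73. Slc7a7 had passed the level filter through the granulocyte arrays alone. By the dimmer probe set of Slc7a6 granulocytes had 4.67 and 2.71 and overlapped with monocytes, at 2.95 and 4.73, and nucleated erythrocytes, at 2.76 and 2.73.

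Few transporters had their highest level in NK cells or B cells. In NK cells 1 of the 28 was higher than the mean of the other types, where 16.1% of all genes were, and 7 were lower, where 11.6% of all genes were. The lysosomal carrier Slc36a1 had 7.48 and 6.68 in NK cells, against 6.38 or less on every other array (1.87 ± 0.32, limma adjusted p = 4.45e-04), which held in NK cells for 3.96% of all genes. Slc1a4 had 3.59 and 4.84, the lowest values of any type and below all other arrays, which held for 0.968% of all genes. These values lie under the filter level of 5, where no level can be read. Monocytes, the next type, had 4.99 on both arrays and were within 2 standard errors (0.775 ± 0.64). Slc7a5 was lower by 3.31 ± 0.39 (limma adjusted p = 2.29e-05). Slc6a9, Slc38a5, Slc43a3, Slc7a11 and Slc7a3 were lower as well, and each had values near those of NK cells in several other types. In B cells 6 were higher, where 16.4% of all genes were, and 6 were lower, where 11.3% of all genes were. The glutamine carrier Slc38a1 had 12.67 and 12.59, above all other arrays (2.29 ± 0.86, limma adjusted p = 0.0482), which held in B cells for 4.37% of all genes. Its margin over NK cells, the next type, was only 0.62 ± 1.15. By its dimmer probe set B cells were not the highest type. They had 6.27 and 6.03, against 6.91 and 7.17 in LT-HSC and 7.20 and 6.94 in activated CD8 T cells. Slc7a7, Slc43a2, Slc7a6, Slc38a6 and Slc1a5 were higher by 1.08 to 1.85, with arrays that overlapped those of other types. These counts depended on single arrays. Leaving out either NK array gave fewer calls in NK cells than the 8 above. Leaving out either B cell array gave fewer calls in B cells than the 12 above.

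Set against the 6 types that are not T cells, naive and activated T cells differed in opposite ways for some of these carriers. In activated T cells 9 of the 28 transporters were higher, where 28.9% of all genes were, and 8 were lower, where 24.1% of all genes were. In naive T cells 3 were higher, where 22.2% of all genes were, and 9 were lower, where 14.3% of all genes were, and none of these 12 kept all naive arrays apart from the other types, which 3.06% of all genes did above and 0.571% below them. In activated T cells Slc1a4, Slc7a3 and Slc7a1, 3 of the 9, lay above all arrays of the other types. This held for 14.0% of all genes. Slc7a3 had passed the level filter through the activated arrays alone, so that count is a description. Slc43a2 and Slc38a9, 2 of the 8, lay below all arrays of the other types, which held for 5.02% of all genes. Slc3a2 was 1.23 ± 0.26 above those types in activated T cells (limma adjusted p = 7.84e-04), and 1.05 ± 0.26 below them in naive T cells (limma adjusted p = 0.00354). Slc38a6 was higher in naive T cells by 1.11 ± 0.19 (limma adjusted p = 1.86e-04) and was not called in activated T cells. Slc7a6 was higher in both, by 3.34 ± 0.26 in activated and 2.27 ± 0.26 in naive T cells (limma adjusted p = 8.19e-08 and 7.00e-06). Both comparisons share the arrays of the other types, so their agreement is not independent.

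By the probe sets used, the remaining members stayed level or low. Slc38a2 and Slc38a10 exceeded 10 on all 20 arrays, and their type means differed by no more than 1.19 and 1.48. Slc38a10, an amino acid carrier found inside cells, lay between 10.21 and 12.08, with the lowest mean in granulocytes. Dimmer probe sets of both genes varied more. For Slc38a2 a dimmer set ran from 5.08 on activated CD4 array 2 to 10.06 on NK array 1. For Slc38a10 a dimmer set ran from 5.80 on nucleated erythrocyte array 2 to 9.02 on NK array 1. In another Slc38a10 set granulocytes were not lowest, with 9.52 and 9.35, against 8.87 and 8.30 in LT-HSC. Slc6a2, the norepinephrine carrier, stayed between 4.21 and 5.88 and was highest in monocytes and nucleated erythrocytes, values so near the filter that no level can be read from them. The 30 genes that did not pass are accounted for as follows. For 29 of them no probe set exceeded a log2 value of 5 on any array, with Slc36a3 highest among these at 4.73, and Slc7a13 exceeded it once, at 5.30 on monocyte array 1. They hold the neuronal and glial glutamate carriers (Slc1a1, Slc1a2, Slc1a3, Slc1a6 and Slc1a7), the carriers of GABA, dopamine and serotonin, the second heavy chain Slc3a1 with its kidney partner Slc7a9, and the light chains Slc7a8 and Slc7a10. The genes just inside the filter, with 2 arrays above 5, were Slc38a5, Slc43a1, Slc6a15, Slc6a19, Slc6a8 and Slc7a7. A value under 5 shows that a transcript was not measurable with these probe sets, not that it is absent. For Slc1a2 a further probe set that is listed under 2 gene symbols was not used.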

How the data were processed

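Gene expression was measured on 20 arrays, 2 for each of 10 sorted cell types. Per the submitters' processing notes, the authors turned the scans into log2 values with GCRMA, a method that removes background, normalizes the arrays against each other and combines the probes of each set. The sources used here do not state its version or whether it was run on all arrays at once. The deposited log2 values were used without further normalization. They ran from 0.37 to 16.85, with array medians between 3.08 and 3.27. Precision is limited by the number of arrays.

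Gene names came from the platform annotation, which gave 1 symbol for 34945 of 45101 probe sets and several for 932. A gene was represented by its probe set with the highest mean, and tested if at least 2 arrays exceeded a log2 value of 5 (9810 of 18193 genes). Groups were taken from the sample titles, and for 1 naive CD8 array, whose title reads CD48+, from its source name. Each cell type was given a mean in a linear model of all 20 arrays, fitted in R 4.3.3 with lmFit and eBayes of limma 3.58.1, with 10 residual degrees of freedom. Tests were 2-sided except the comparison of a type with each of the other 9, and Benjamini-Hochberg adjustment ran over every gene tested. P-values measure the spread between pools of RNA, not between single mice. The analysis was tested on simulated data.

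The members, the lists of neighbouring pathways and the markers were chosen with earlier results of these data known, so their counts are descriptions. Values by array are given for every transporter called in activated against naive T cells or above all other types, and for genes whose probe sets disagree. Of the other lists, up to 4 called genes per direction were eligible to be named. Alternatives changed the probe set, the filter, the normalization, the variance model and the arrays in the fit. Promoter sequences come from RefSeq (GRCm38.p6).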

Additional observations from a re-analysis of the deposited data

Results flagged for a closer look

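Slc6a19 was called lower after activation in CD8 T cells, and in CD4 T cells it lay near the background before and after. Its activated minus naive difference in CD8 T cells minus that in CD4 T cells was -5.14 ± 0.26 on the log2 scale. The gene had passed the level filter only through the 2 naive CD8 arrays and so had to differ to be reported, which makes this a description. It was the only difference between the lineages in this test that was called among the 28 transporters. The level in naive CD8 T cells was above 8 on both arrays, and on both arrays of its second probe set, and every array of activated CD8, activated CD4 and naive CD4 T cells was at 3.51 or below. The naive CD8 array whose title reads CD48+ had 8.24, against 8.50 on the other naive CD8 array. Without that array the gene would not have passed the level filter, so leaving it out cannot test the call.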

How the results depend on the processing

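Of 505 counts recomputed under alternatives, 493 stayed within 1.5 times the count given above, and 12 did not. With the mean of all probe sets of a gene, 0 transporters were called between activated CD8 and activated CD4, 7 in B cells and 6 in naive T cells against the other types. Without the filter on low values 5 were called in NK cells and 7 in B cells. In a fit of the compared groups alone, 0 were called between naive CD8 and naive CD4 and 0 between activated CD8 and activated CD4 T cells. In each of these fits fewer samples, more genes or other probe sets enter, and the cause was not tested further. Leaving out 1 array at a time gave 5 to 8 higher and 2 to 4 lower transporters in CD4 activation, and 4 to 8 higher and 3 to 4 lower in CD8 activation. It gave 2 to 13 calls in B cells, 3 to 10 in NK cells, 7 to 11 in LT-HSC, 13 to 17 in nucleated erythrocytes, 11 to 15 in granulocytes, 10 to 14 in monocytes and 0 to 1 between the activated lineages. Transporters above all other types numbered 7 to 9. The array numbers were not taken to pair the samples, since over 45 pairs of types the deviations of same-numbered arrays correlated between -0.26 and 0.21 and exceeded 0.1 for 9. Among these were the naive lineages (0.12), whose arrays numbered 1 share the Y-linked signal, and the activated lineages (0.21). With the array number as a replicate block, the counts were 6 higher and 3 lower in each lineage, and the block moved no other count by over 1.5 times. A type with 1 array left is assumed to vary like the others. Of 1074 values of single genes, 978 kept their direction and side of the threshold, 39 lost a call, 56 gained one and 1 changed sign. That was Slc38a9 in CD4 T cells, at 0.12 with the probe set of largest variance. Low probe sets and 2 arrays a type set the limit on what these arrays resolve.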

Other observations

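The light chains that need the heavy chain Slc3a2 had their highest means in 3 different cell types. Slc7a5 was highest in nucleated erythrocytes (12.41 and 12.39), Slc7a6 in LT-HSC (11.41 and 11.42), and Slc7a7 (5.99 and 6.44) and Slc7a11 (7.43 and 5.96) in granulocytes. None of them was called above all other types. The margins over the next type were within 2 standard errors for Slc7a5 (0.86 ± 0.53), Slc7a6 (0.315 ± 0.45) and Slc7a11 (0.24 ± 0.58). By its dimmer probe set Slc7a6 was higher in activated CD8 T cells (8.93 and 8.81) than in LT-HSC (8.69 and 8.44). In granulocytes Slc7a6 (4.23 and 3.82) had its lowest values by its brighter probe set, and Slc3a2 (8.54 and 8.04) its lowest mean. These Slc7a6 values lie under the filter level of 5. By the dimmer Slc7a6 set granulocytes had 4.67 and 2.71, against 2.76 and 2.73 in nucleated erythrocytes.

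The naive arrays numbered 1, which carry the Y-linked transcripts, also had the lower values of the brightest Slc38a9 probe set, with 8.45 against 10.36 in naive CD4 T cells and 9.21 against 10.05 in naive CD8 T cells. With both left out, the differences of activated from naive cells were -2.73 in CD4 and -2.25 in CD8 T cells. Leaving out the lower naive values makes the fall larger by itself. The naive arrays that remain carry no Y-linked signal, whereas all activated arrays do. The part of the Y-linked signal in this was not tested. Naive CD4 array 2 is also the array that held S100a8 and S100a9, and granulocytes had 10.91 and 10.33 by the brightest Slc38a9 set. The part of such cells was not tested either. Other Slc38a9 sets did not all give this order. Naive CD4 arrays 1 and 2 had 9.31 and 9.19 by 1 of them, and 7.36 and 8.70 by another. Over all settings tried the limma adjusted p of the Slc38a9 difference ranged from 4.96e-04 to 0.949 in CD4 and from 7.40e-04 to 0.496 in CD8 T cells.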
